A study of Mus musculus with 6 samples.

Results

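The mouse T cell receptor alpha locus on chromosome 14 carries a long array of variable gene segments, the Trav segments. They were taken here as every row of the deposited expression table whose symbol starts with Trav and whose value was above 0 FPKM, a read density per gene length and library depth, in at least 2 of the 6 libraries. This gave 103 members of the 18122 rows of the table. The table holds 108 Trav rows in all, and the other 5 were above 0 in 1 library only. By symbol the members fell into 48 plain copies (such as Trav8-1), 29 copies with the suffix d (Trav8d-1) and 26 copies with the suffix n (Trav16n). All 103 matched a Trav entry in the RefSeq gene table of GRCm38.p6, which lists 130 Trav entries on chromosome 14, with 99 members typed as variable segments and 4 as pseudogenes. No coordinates are given, because the build behind the deposited table is not given in the sources used here.

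An alpha chain gene is assembled in the thymus when RAG recombinase joins a Trav segment to a joining segment upstream of the constant gene. The variable segment encodes the leader peptide and most of the variable domain, including the loops CDR1 and CDR2 that contact the MHC molecule. In bulk RNA the level of a Trav segment is therefore the summed transcript of all cells that rearranged it, and fewer cells of a type and less RNA per cell cannot be told apart. The central stretch of the mouse locus is a block that was duplicated, and the d and n suffixes name the copies in the added blocks. The number and content of these blocks differ between inbred mouse strains. Segments with dv in the symbol can also be used by the delta chain.

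The samples were mouse CD8+ T cells from the lymph nodes of 2 genotypes, wild type (WT) and Dusp2 knockout (Dusp2-/-). Dusp2 encodes a phosphatase that inactivates MAP kinases. All cells, of either genotype, were cultured for 18 h with anti-CD3 and anti-CD28 antibodies (1 µg/mL each), 20 ng/mL of IL-4 and 50 ng/mL of IFN-α. This mix was used to turn them into virtual memory cells, a T cell state with memory markers that forms without contact with foreign antigen. They were then sorted into a fraction with very high CD44 (CD44hi) and a fraction with low CD44 (CD44lo). There were 2 libraries of WT CD44hi, 2 of Dusp2-/- CD44hi, 1 of WT CD44lo and 1 of Dusp2-/- CD44lo. The labels name no strain, age or sex, and leave unstated which animal or culture each library came from. All p-values therefore reflect the spread between these libraries alone, which may be technical. The treatment field of the labels names Cd4-Cre mice with floxed Rpa1, where Cre would act in T cells, in place of Dusp2-/- mice, while the titles, the genotype field and the design text name Dusp2.

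Dusp2 itself stood at 82.6 and 83.9 FPKM in CD44hi cells of WT and 116 in WT CD44lo, and at 0, 0.0283 and 0 FPKM in the Dusp2-/- libraries. Rpa1, which the treatment field names, was at 33.7 and 35.2 FPKM in WT CD44hi and at 41.3 and 41.4 in Dusp2-/- CD44hi. In CD44lo it was at 27.4 FPKM in WT and 28.2 in Dusp2-/-. Cd44 was at 65.3 to 79.9 FPKM in CD44hi and at 1.33 and 1.43 in CD44lo. Cd8a and Cd8b1, which define the labelled cell type, were at 246 FPKM or more in all 6 libraries, and Cd4 was at most 0.0228 FPKM. Summed over their detected markers, genes of B cells reached at most 0.379 FPKM, of NK cells 0.0466, of myeloid cells 0.212 and of γδ T cells, with 2 of 5 listed markers in the table, 0.599. Xist, the RNA of the inactive X chromosome, was at 15.1 and 15.5 FPKM in the Dusp2-/- CD44hi libraries and at most 0.00641 FPKM in the other 4, Dusp2-/- CD44lo among them. Whole reads recovered from the FPKM values came to 23490092 in Dusp2-/- CD44lo and to between 42816124 and 55830300 in the others, of which 3246 to 5661 fell on Trav members.

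The copies of a name differ by few bases, and reads from near-identical copies can be assigned to the wrong copy, so the sequences of 3 names whose copies differed in opposite directions between the genotypes are shown first. Coding sequences were read from the GENCODE vM21 annotation of GRCm38, 5′ to 3′ on the coding strand, and a stretch of 300 bases of each is given. Capitals mark aligned bases that differ between the copies shown, and bases with no counterpart in another copy stay in lower case. In the pair Trav8-1 and Trav8d-1, 4 of 328 aligned bases differed, and Trav8d-1 had 9 further bases in the leader. Bases 1 to 300 of each are shown.
Trav8-1: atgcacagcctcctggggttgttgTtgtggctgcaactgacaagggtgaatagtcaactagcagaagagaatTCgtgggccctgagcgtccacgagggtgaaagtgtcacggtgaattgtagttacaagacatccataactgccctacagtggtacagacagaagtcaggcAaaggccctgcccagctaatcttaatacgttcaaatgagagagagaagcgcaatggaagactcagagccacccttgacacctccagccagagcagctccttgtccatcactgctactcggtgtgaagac
Trav8d-1: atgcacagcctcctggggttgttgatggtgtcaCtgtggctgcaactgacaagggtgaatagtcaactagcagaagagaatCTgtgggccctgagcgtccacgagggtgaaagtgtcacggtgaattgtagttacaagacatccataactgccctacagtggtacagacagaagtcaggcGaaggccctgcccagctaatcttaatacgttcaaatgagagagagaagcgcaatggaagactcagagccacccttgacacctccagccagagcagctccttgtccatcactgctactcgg

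The differences between them, counted from 1 at the A of the start codon of Trav8-1 and written with the base of Trav8-1 before that of Trav8d-1, were T25C, T73C, C74T and A172G. Trav7-5 and Trav7d-5 differed at 14 of 337 bases, from C57A to G316C on the same counting from Trav7-5. Trav7n-5 had the same 337 bases as Trav7d-5 and is not printed. Bases 38 to 337 are shown, which hold all 14 differences.
Trav7-5: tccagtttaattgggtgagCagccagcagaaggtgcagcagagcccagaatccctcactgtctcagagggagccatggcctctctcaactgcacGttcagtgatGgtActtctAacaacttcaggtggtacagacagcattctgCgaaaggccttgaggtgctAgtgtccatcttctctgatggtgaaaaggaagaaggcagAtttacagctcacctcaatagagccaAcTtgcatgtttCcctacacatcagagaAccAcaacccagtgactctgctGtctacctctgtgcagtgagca
Trav7d-5: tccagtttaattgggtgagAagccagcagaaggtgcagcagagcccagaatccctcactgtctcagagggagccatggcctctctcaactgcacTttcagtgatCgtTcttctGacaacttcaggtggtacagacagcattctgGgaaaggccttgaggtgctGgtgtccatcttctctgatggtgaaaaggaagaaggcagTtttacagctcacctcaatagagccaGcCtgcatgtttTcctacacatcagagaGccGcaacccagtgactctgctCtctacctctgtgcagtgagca

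Trav16 has all 3 kinds of copy. Trav16 and Trav16d-dv11 differed at 9 of 350 aligned bases, Trav16 and Trav16n at 5, and Trav16d-dv11 and Trav16n at 6. Trav16d-dv11 and Trav16n each had 3 further bases with no counterpart in Trav16. The differences between Trav16 and Trav16n, counted in Trav16, were C19T, A100G, A242T, A243G and T300C. Bases 19 to 318 of each are shown, which leaves out the difference A321G between Trav16 and Trav16d-dv11.
Trav16: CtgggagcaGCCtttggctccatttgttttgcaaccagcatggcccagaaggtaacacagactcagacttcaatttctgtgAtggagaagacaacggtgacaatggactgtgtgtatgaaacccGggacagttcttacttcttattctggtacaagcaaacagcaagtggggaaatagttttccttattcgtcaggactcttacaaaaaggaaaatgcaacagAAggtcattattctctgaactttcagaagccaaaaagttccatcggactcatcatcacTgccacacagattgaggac
Trav16d-dv11: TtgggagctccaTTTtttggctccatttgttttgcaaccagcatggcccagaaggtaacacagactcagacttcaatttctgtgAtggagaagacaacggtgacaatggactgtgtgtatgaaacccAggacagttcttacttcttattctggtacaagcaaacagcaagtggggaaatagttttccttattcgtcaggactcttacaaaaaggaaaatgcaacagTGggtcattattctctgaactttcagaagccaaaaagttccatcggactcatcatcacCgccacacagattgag
Trav16n: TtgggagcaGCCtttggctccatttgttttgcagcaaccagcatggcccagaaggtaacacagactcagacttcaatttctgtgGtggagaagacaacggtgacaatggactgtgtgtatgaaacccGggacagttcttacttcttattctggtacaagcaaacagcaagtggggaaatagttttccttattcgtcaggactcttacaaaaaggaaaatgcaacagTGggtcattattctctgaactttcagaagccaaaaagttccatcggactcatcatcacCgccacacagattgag

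Of the 103 members, 95 had a coding sequence in the annotation, 328 to 377 bases long. Over the 66 pairs of copies of 1 name the identity ran from 91.8% to 100%, with a median of 98.1%, against a median of 64.9% over the 4399 pairs of different names. In 13 pairs of copies the aligned bases held no difference. Of these, 12 were among the 19 pairs of a d with an n copy, and 1, Trav11 with Trav11d, among the 25 pairs of a d with a plain copy. None of the 22 pairs of an n with a plain copy was free of differences, and the fewest was 4. Values of a d and an n copy without a difference, such as Trav7d-5 and Trav7n-5, are uncertain as a split between the copies. How the authors' counting treated reads that fit several copies is not given in the sources used here.

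The copies from the added blocks made up a greater part of Trav expression in Dusp2-/- cells. The d copies held 12.7% and 11.7% of the Trav FPKM sum in WT CD44hi and 12.6% in WT CD44lo, against 30.1% and 27.2% in Dusp2-/- CD44hi and 28.3% in Dusp2-/- CD44lo. The n copies held 16.3%, 14.5% and 17.3% in the same WT libraries and 20.0%, 21.5% and 18.5% in the Dusp2-/- ones. Plain copies held the rest, 70.1% to 73.7% in WT and 49.9% to 53.2% in Dusp2-/-. For each kind of copy the 3 libraries of 1 genotype lay wholly to 1 side of the 3 of the other, with the n copies separated by the narrowest gap. The labels name no strain for either genotype. A difference that goes with Dusp2 therefore cannot be told apart, here or in the results on single copies that follow, from a difference in the alpha locus carried by the mice of 1 genotype.

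The summed share of d and n copies was 48.5% ± 1.64 (SD, n = 3) in Dusp2-/- and 28.4% ± 1.89 (SD, n = 3) in WT, a difference of 20.2 percentage points. The exact permutation test of the 6 libraries, two-sided and over both fractions, gave p = 0.1, the smallest that 3 against 3 can give, and 0.14 after Benjamini-Hochberg adjustment over 7 summary measures. Counted in reads, the d and n copies took 29.4% of 5661 Trav reads in WT CD44lo (Wilson 95% interval 28.2% to 30.6%) and 46.7% of 3246 in Dusp2-/- CD44lo (45.0% to 48.5%). These intervals cover counting error only.

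**Figure D1:**
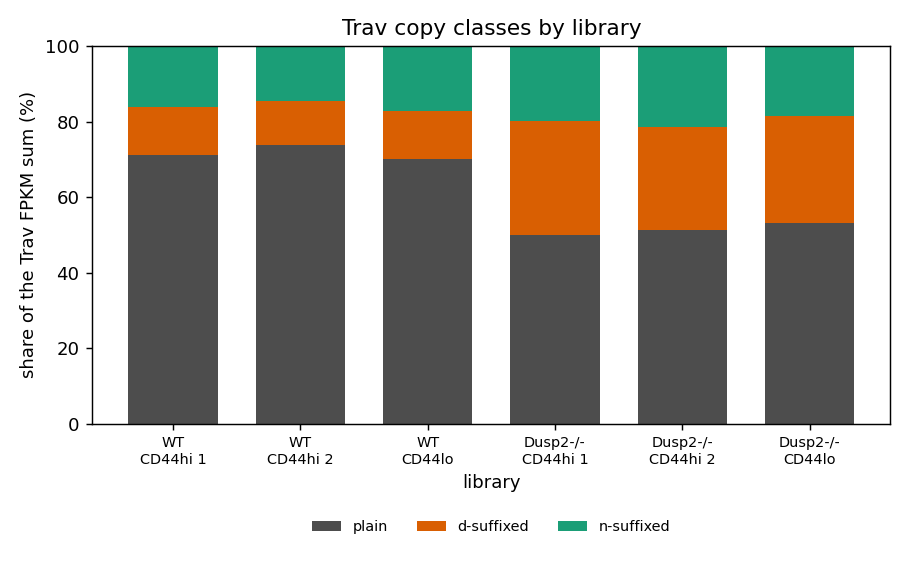
Stacked bars give the share of the Trav FPKM sum (%, vertical axis from 0 to 100) held by plain, d-suffixed and n-suffixed copies in each of the 6 libraries (horizontal axis). The d-suffixed layer spans 11.7% to 12.7% in the 3 WT libraries and 27.2% to 30.1% in the 3 Dusp2-/- libraries.

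The total over all Trav members did not separate the genotypes. The Trav FPKM sum was 256 and 193 in WT CD44hi and 284 in WT CD44lo, and 246, 251 and 350 in the matching Dusp2-/- libraries. The difference of the means was 37.8 FPKM, and the exact permutation test, two-sided, gave p = 0.6. Without the second WT CD44hi library the difference was 12.2 FPKM. More members were detected in Dusp2-/- cells, with 94, 93 and 90 of 103 above 0 FPKM against 81, 76 and 83 in WT, although Dusp2-/- CD44lo had the fewest reads. The expression was spread over slightly fewer segments in effect. The effective number, the exponential of the Shannon entropy of the shares, was 48.0, 48.2 and 48.7 in WT and 45.6, 45.9 and 45.0 in Dusp2-/-, a difference of -2.79 (exact permutation test, two-sided, p = 0.1, adjusted 0.14).

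The most used segments differed as well. Trav16n, the n copy of Trav16, held 5.91%, 4.96% and 6.28% of the Trav sum in WT CD44hi 1, CD44hi 2 and CD44lo and 8.11%, 8.88% and 8.63% in the Dusp2-/- libraries in that order. Trav3-3 held 3.93, 4.47 and 4.29% in WT against 8.80, 9.32 and 7.66 in Dusp2-/-, in the same order, and was the first-ranked segment in both Dusp2-/- CD44hi libraries. Trav12-2 and Trav16, which ranked second and first in the WT CD44hi libraries with 5.76% and 5.2%, held at most 0.0674% and 0.664% in Dusp2-/-. Over the 6 libraries the greatest mean shares were those of Trav16n (7.13%), Trav3-3 (6.41%), Trav5-4 (4.44%), Trav16d-dv11 (3.71%), Trav14-1 (3.36%) and Trav7-4 (3.03%). The first 10 segments together held 39.8% to 40.9% in WT and 47.2% to 49.3% in Dusp2-/-.

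As a measure over all segments, the distance between 2 libraries was the percentage of the Trav sum that would have to be moved to other segments to make their shares equal. Between the CD44hi replicates it was 11.4% for WT and 10.7% for Dusp2-/-. Between the fractions it was 12.1% and 11.8% in WT and 16.4% and 14.6% in Dusp2-/-. Between the genotypes all 9 distances lay from 44.3% to 49.1%, with a mean of 46.8% against 12.8% over the 6 within a genotype. The distances share libraries and were not tested. The counts of CD44hi replicates differed by more than sampling noise, with a chi-square per degree of freedom over Trav members of 2.83 for WT and 2.72 for Dusp2-/-. They were thus treated as separate libraries.

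**Figure D2:**
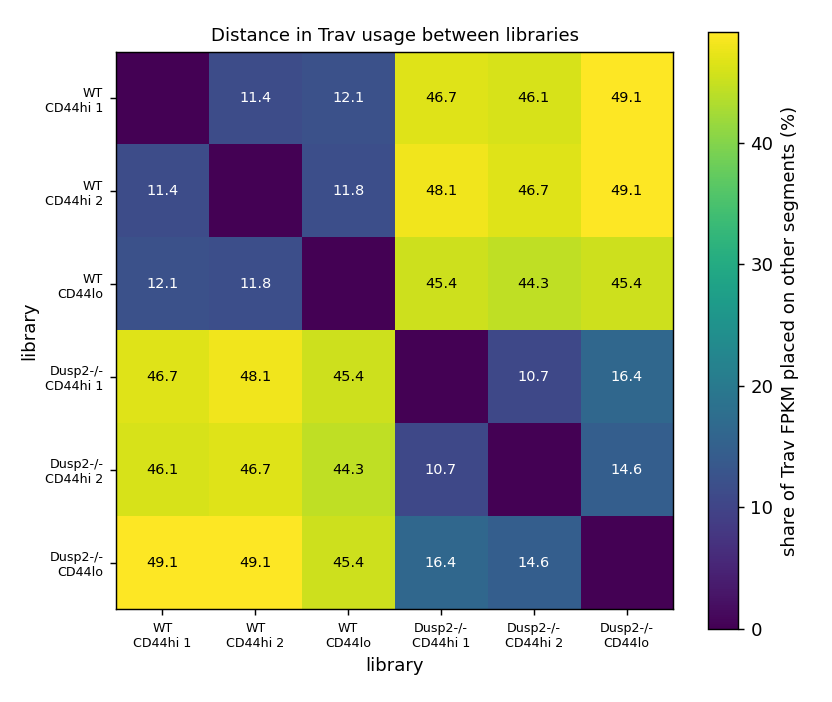
Each cell gives the distance in Trav usage between 2 libraries (rows and columns), as the percentage of the Trav FPKM sum placed on other segments, with the colour scale in percent. The 2 diagonal blocks within a genotype hold 10.7% to 16.4% and the off-diagonal blocks between genotypes 44.3% to 49.1%.

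Single segments were compared in CD44hi with limma on log2(FPKM + 1), for the 9691 rows whose mean reached 1 FPKM, and p-values were adjusted over all of them by Benjamini-Hochberg. On this scale differences of low segments are understated. Of the 103 members, 61 entered the test (39 plain, 14 d and 8 n). Of these, 39 reached 1 FPKM in the means of both genotypes, 11 in WT alone and 11 in Dusp2-/- alone. Members that passed through 1 genotype alone had to differ between them, so the counts do not stand for all 103. Past an adjusted p of 0.05, 22 members were higher and 23 lower in Dusp2-/-, 45 in all, against 26.7% of all rows tested (12.9% higher and 13.8% lower). Among the 39 with both means at 1 FPKM, 27 were called. The calls with a difference of at least 2-fold numbered 29, out of 97 such rows in the whole table, where 1.00% of all rows tested passed.

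By kind of copy, 10 plain copies were higher, 19 were lower and 10 were not called, with a median log2 difference of -0.51 over the 39. Of the 14 d copies, 9 were higher and 2 lower, with a median of 1.24. Of the 8 n copies, 3 were higher and 2 lower, with a median of 0.62. Without the test, all 3 Dusp2-/- libraries lay above all 3 WT libraries for 45 of the 103 members and below them for 27. Of all rows above 0 in at least 2 libraries 5.84% lay above and 8.72% below, 14.6% in all. Of the 29 d copies, 22 lay above, and of the 48 plain copies 20 lay below.

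The segments with the greatest rises were mostly d copies. Trav6d-7 was at 0 and 0.0986 FPKM in WT CD44hi and 0 in WT CD44lo, against 6.26 and 4.91 in Dusp2-/- CD44hi and 5.03 in Dusp2-/- CD44lo. Its log2 difference in CD44hi was 2.64 (SE 0.13, adjusted p = 0.000233), the greatest rise of the 22. Trav8d-1 was at 1.84 and 0.927 FPKM in WT CD44hi and 2.16 in WT CD44lo, against 10.7 and 8.93 in Dusp2-/- CD44hi and 17.6 in Dusp2-/- CD44lo. All Dusp2-/- libraries lay well above the WT ones, and the log2 difference was 2.21 (SE 0.18, adjusted p = 0.00128). Trav9d-1 was at 1.09, 0.524 and 1.34 FPKM in WT against 6.70, 5.72 and 5.72 in Dusp2-/-, with the CD44lo library given last of each 3. It rose by 2.01 (SE 0.16, adjusted p = 0.00114). Trav9n-1, the n copy of the same name, was at 0.339, 0 and 0.232 FPKM in WT against 2.39, 3.96 and 4.82 in Dusp2-/- in the same order and rose by 1.83 (SE 0.21, adjusted p = 0.00346).

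Trav7d-5 was at 0 in all 3 WT libraries and at 2.34, 2.50 and 2.34 FPKM in Dusp2-/-, with a fitted log2 difference of 1.77 (SE 0.10, adjusted p = 0.000556). Trav7d-3 stood at 1.72, 1.27 and 1.81 FPKM in WT against 5.93, 6.44 and 8.44 in Dusp2-/- and rose by 1.53 (SE 0.11, adjusted p = 0.000878). Trav16d-dv11, which the delta chain can also use, stood at 4.75, 4.0 and 6.79 FPKM in WT against 12.8, 14.2 and 17.7 in Dusp2-/- and rose by 1.43 (SE 0.10, adjusted p = 0.000765). In none of these did the genotypes overlap. Trav6-6 was the only plain copy among the 8 greatest rises. It was at 0.267, 0.0513 and 0.114 FPKM in WT against 2.98, 3.19 and 4.14 in Dusp2-/-, with a log2 difference of 1.82 (SE 0.12, adjusted p = 0.000765), and its n copy went the other way. Of the 8, Trav6d-7, Trav9d-1, Trav9n-1, Trav7d-5 and Trav6-6 entered the test through the Dusp2-/- mean alone, so they had to differ.

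The greatest falls were 7 plain copies and 1 n copy. Trav12-2 was at 14.7 and 8.87 FPKM in WT CD44hi and 12.0 in WT CD44lo, against 0.166 and 0 in Dusp2-/- CD44hi and 0 in Dusp2-/- CD44lo. It was among the most used segments in WT and had 0 to 4 reads in each Dusp2-/- library, and its log2 difference was -3.53 (SE 0.21, adjusted p = 0.000662). Trav8-1 was at 8.97 and 6.30 FPKM in WT CD44hi and 5.27 in WT CD44lo, against 0.430 and 0.173 in Dusp2-/- CD44hi and 0 in Dusp2-/- CD44lo. The log2 difference was -2.72 (SE 0.17, adjusted p = 0.000724). This is the plain partner of Trav8d-1, which rose. Trav16 stood at 14.1, 10.0 and 13.7 FPKM in WT against 1.09, 1.67 and 1.5 in Dusp2-/-, CD44lo last, and differed by -2.45 (SE 0.17, adjusted p = 0.00086). Trav7-5, the plain partner of Trav7d-5, stood at 9.07, 5.66 and 9.15 FPKM in WT against 0.733, 0.561 and 0.249 in Dusp2-/- and differed by -2.32 (SE 0.19, adjusted p = 0.00122).

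Trav6n-6, the n copy of Trav6-6, was at 6.11, 3.0 and 6.94 FPKM in WT against 0.145, 0.725 and 0.803 in Dusp2-/- and differed by -1.92 (SE 0.29, adjusted p = 0.00688), the greatest SE of the 8. Trav4-4-dv10 was at 4.65, 4.84 and 5.87 FPKM in WT against 0.489, 0.943 and 1.04 in Dusp2-/- and differed by -1.76 (SE 0.14, adjusted p = 0.00104). Its n copy, Trav4n-4, had 2 and 10 reads in Dusp2-/- CD44hi and 0 elsewhere. Trav4-3 stood at 6.21, 4.51 and 6.88 FPKM in WT against 1.07, 1.38 and 1.43 in Dusp2-/- (-1.50, SE 0.15, adjusted p = 0.00194 in limma). Trav9-2 stood at 5.80, 4.83 and 5.51 FPKM in WT against 1.35, 1.14 and 1.79 in Dusp2-/- (-1.49, SE 0.11, adjusted p = 0.000878). For all 8 falls every Dusp2-/- library was below every WT library. Of the 8, Trav12-2, Trav8-1, Trav7-5, Trav6n-6 and Trav4-4-dv10 entered the test through the WT mean alone, so they had to differ. The genotype difference in CD44hi goes with Xist, at 15.1 and 15.5 FPKM in the Dusp2-/- libraries against at most 0.00641 in WT. The Dusp2-/- CD44lo library, with Xist at 0, lay with the Dusp2-/- CD44hi libraries for all 16 segments. That is 1 library, and the segments were picked by their genotype difference. The part of sex or animal in these differences was not tested.

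**Figure D3:**
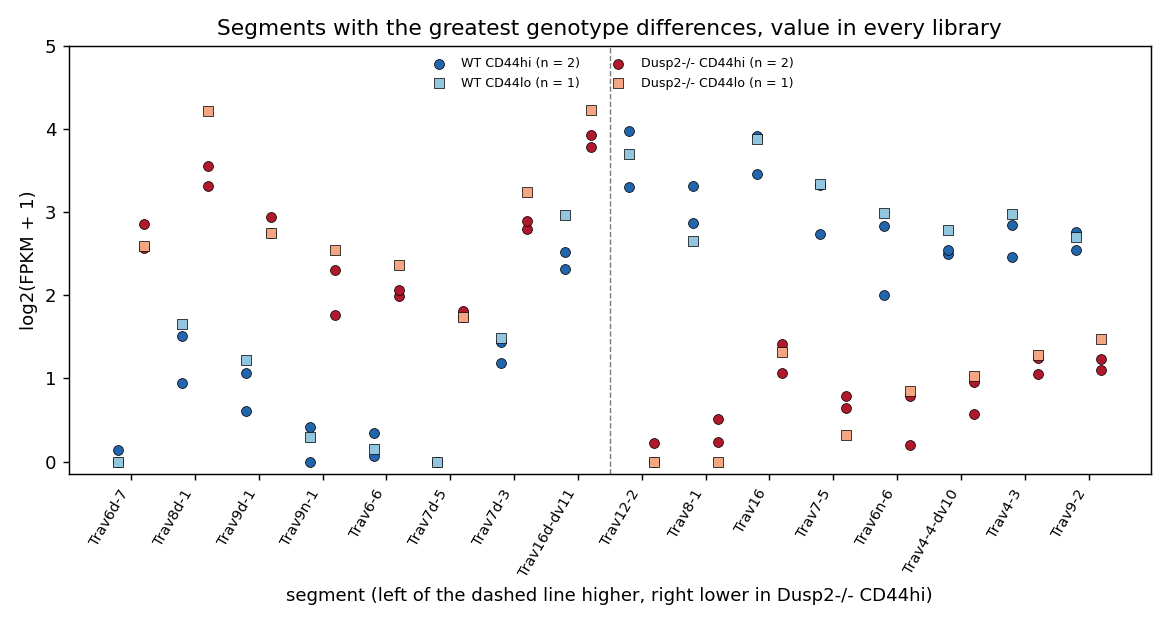
Points give log2(FPKM + 1) in every library for the 8 segments with the greatest rises (left of the dashed line) and the 8 with the greatest falls (right) in Dusp2-/- CD44hi, with circles for CD44hi, squares for CD44lo, blue for WT and red for Dusp2-/-. In each segment the 3 WT and the 3 Dusp2-/- points do not overlap, as for Trav12-2 with 8.87 to 14.7 FPKM in WT and at most 0.166 in Dusp2-/-.

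Of the 6 segments with the greatest mean shares, Trav16d-dv11 is given above and the other 5 had smaller genotype differences. Trav3-3 was at 10.0 and 8.63 FPKM in WT CD44hi and 12.2 in WT CD44lo, against 21.6 and 23.4 in Dusp2-/- CD44hi and 26.8 in Dusp2-/- CD44lo, and its log2 difference in CD44hi was 1.19 (SE 0.09, adjusted p = 0.000878). Trav5-4 was at 8.58, 6.69 and 10.1 FPKM in WT against 16.3, 13.2 and 15.3 in Dusp2-/-, CD44lo last, and rose by 0.87 (SE 0.13, adjusted p = 0.00692). Trav16n, the n copy whose plain partner fell, was at 15.1, 9.57 and 17.8 FPKM in WT against 19.9, 22.3 and 30.2 in Dusp2-/- and rose by 0.76 (SE 0.18, adjusted p = 0.027). In these 3 every Dusp2-/- library lay above every WT library. Trav7-4 was at 5.86, 5.67 and 8.14 FPKM in WT against 6.89, 8.34 and 13.9 in Dusp2-/-, where the genotypes overlapped over both fractions, and differed by 0.34 (SE 0.10, adjusted p = 0.0425) in CD44hi. Its call was lost in limma without the second WT CD44hi library (adjusted p = 0.0677) and without the second Dusp2-/- CD44hi library (0.332). Trav14-1 was not called between the genotypes in CD44hi, with a difference of -0.20 (SE 0.11, adjusted p = 0.2).

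Within a name, the genotypes differed in which copy was expressed. Of the 103 members, 86 shared their name with another member, in 33 name groups, and 32 of these groups held a plain copy. The plain copy's part of its group's FPKM was lower in every Dusp2-/- library than in every WT library in 24 of the 32, higher in 2 and neither in 6. For Trav8-1 with Trav8d-1 the plain part was 83.0, 87.2 and 70.9% in WT against 3.86, 1.90 and 0 in Dusp2-/-, CD44lo last. The sum of the group was 10.8, 7.22 and 7.43 FPKM in WT against 11.2, 9.11 and 17.6 in Dusp2-/- and overlapped between genotypes. For the 3 Trav16 copies the plain part was 41.4, 42.5 and 35.8% in WT against 3.23, 4.37 and 3.03 in Dusp2-/-, with a sum of 33.9, 23.6 and 38.4 FPKM in WT against 33.8, 38.1 and 49.4 in Dusp2-/-. In both names the totals overlapped while the parts did not.

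In other names the sum differed too. For Trav7-5 the plain part was 100, 100 and 100% in WT against 23.5, 18.0 and 9.60 in Dusp2-/-, and the sum of its 3 copies was 9.07, 5.66 and 9.15 FPKM in WT against 3.12, 3.12 and 2.59 in Dusp2-/-, lower in every Dusp2-/- library. For Trav9-1 the plain part was 77.0, 84.0 and 73.4% in WT against 7.23, 11.3 and 10.7 in Dusp2-/-, and the sum was 6.22, 3.27 and 5.91 FPKM in WT against 9.81, 10.9 and 11.8 in Dusp2-/-, higher in every Dusp2-/- library. For Trav6-7, whose plain copy Trav6-7-dv9 stood at 2.30, 2.14 and 2.07 FPKM in WT against 0.885, 0.649 and 0.884 in Dusp2-/-, the plain part was 100, 93.5 and 100% in WT against 12.4, 11.3 and 14.9 in Dusp2-/-. Trav12d-2, the d copy of Trav12-2, was low in both genotypes, at 0.152, 0 and 0.0865 FPKM in WT against 0.466, 0.875 and 1.75 in Dusp2-/-, and the sum was 14.9, 8.87 and 12.1 FPKM in WT against 0.632, 0.875 and 1.75 in Dusp2-/-. The exceptions with a higher plain part were Trav6-6, at 4.19, 1.68 and 1.62% in WT against 95.4, 81.5 and 83.7 in Dusp2-/- with an overlapping sum, and Trav13-1, at 74.1, 84.0 and 79.6% in WT against 100, 98.8 and 97.7 in Dusp2-/- with a lower sum.

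Over the 32 groups with a plain copy, the sum of the copies was higher in every Dusp2-/- library in 10, lower in 10 and neither in 12. Of single rows above 0 in at least 2 libraries, 5.84% lay above and 8.72% below in this way. With the copies of each name summed before the fit, 2569 of all 9670 rows were called in CD44hi in limma at a Benjamini-Hochberg adjusted p below 0.05. Of the 40 names tested, 13 were higher and 12 lower in Dusp2-/-. Among them Trav12-2 differed by -2.84 (SE 0.21, adjusted p = 0.00112 in limma), Trav3-3 by 1.22 (SE 0.09, adjusted p = 0.00112) and Trav7-3 by 1.34 (SE 0.11, adjusted p = 0.00143). Copies of a name can differ in length, so a read moved between them can still change such a sum. The mean distance in usage between the genotypes was then 29.9%, against 10.7% within a genotype.

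**Figure D4:**
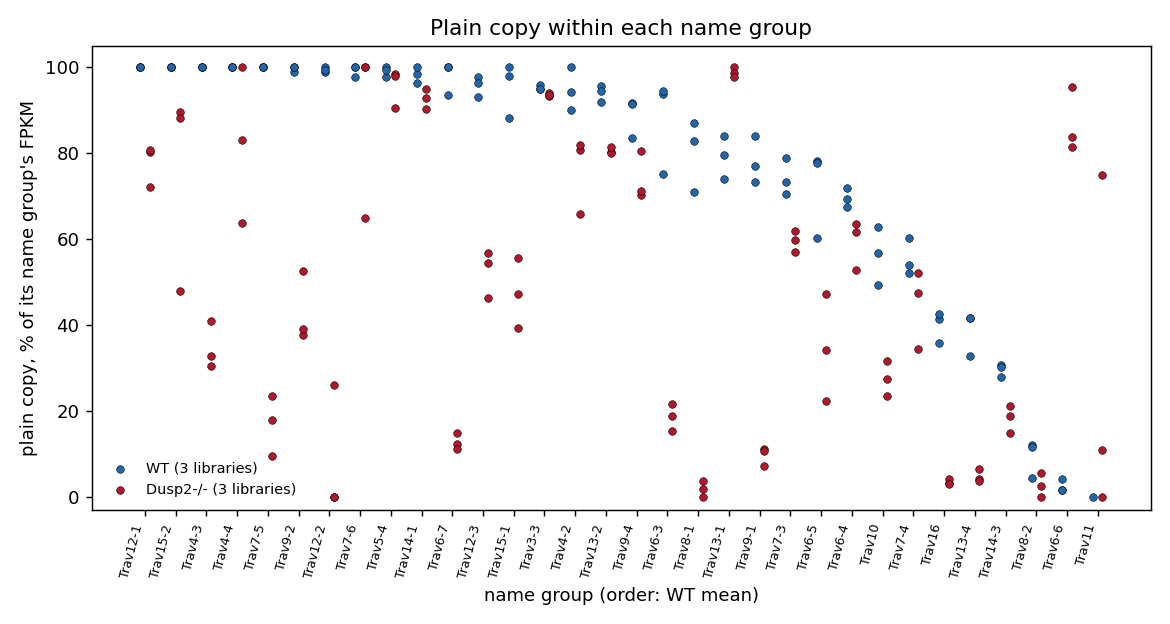
For the 32 name groups with a plain copy and a d or n copy (horizontal axis, ordered by the WT mean), points give the plain copy as a percentage of the group's FPKM (vertical axis) in 3 WT (blue) and 3 Dusp2-/- (red) libraries. In 24 groups all red points lie below all blue points and in 2, Trav13-1 and Trav6-6, above them. Libraries in which a group was at 0 have no point.

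Some copies from the added blocks had no read in WT. At 0 in all WT libraries were 11 members (5 d, 5 n and the plain Trav11), and at 0 in all Dusp2-/- libraries was 1, the plain Trav3-4. Against a floor of 3 reads per library, which covers counting error only, Trav15d-1-dv6d-1 was at least 17.1-fold higher in Dusp2-/- than the floor in WT, with 116 reads over the 3 Dusp2-/- libraries. Trav7d-5 was at least 13.5-fold higher (109 reads), Trav4n-3 at least 8.17-fold (62 reads), Trav4d-3 at least 5.75-fold (45 reads) and Trav12d-1 at least 3.27-fold (30 reads). In the other direction Trav3-4 was at least 8.64-fold lower in Dusp2-/-, with 104 reads in WT. Trav4d-3 and Trav4n-3 have no base difference between them, so the split of their reads is uncertain, though both were at 0 in WT. Trav15d-1-dv6d-1 has no difference from Trav15n-1 over 352 aligned bases, and Trav15n-1 did have reads in WT. There the plain copy held 88.3% of the group's FPKM in CD44hi 1 and 98.0% in CD44lo, and Trav15n-1 the rest. The bound for Trav15d-1-dv6d-1 therefore covers only the reads assigned to it.

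The remaining copies of the names above had few reads. Trav9d-2 had 8, 3 and 3 reads in the Dusp2-/- libraries and 0 in WT. Trav9n-2 stood at 0.0676, 0 and 0 FPKM in WT against 1.82, 1.61 and 1.23 in Dusp2-/-, close to 0 in WT. Trav7n-5 had 1 read in each Dusp2-/- CD44hi library and 0 elsewhere. Trav6n-7 had at most 3 reads in any library, and the genotypes overlapped. Trav9-1, the plain partner of Trav9d-1 and Trav9n-1, was better covered, at 4.79, 2.75 and 4.34 FPKM in WT against 0.709, 1.24 and 1.26 in Dusp2-/-, and differed by -1.25 (SE 0.22, adjusted p = 0.011) in limma.

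Along the locus, higher calls outnumbered lower ones up to the end of the n copies, and lower calls outnumbered higher ones after them. In RefSeq order, 6 plain members precede the d copies, the 29 d copies and then the 26 n copies follow, and 42 plain members lie after the n copies. In the first stretch all 6 were tested, and 4 were higher and 1 lower in Dusp2-/- CD44hi. Among the 14 tested d copies 9 were higher and 2 lower, and among the 8 n copies 3 were higher and 2 lower. After the n copies 6 of 33 were higher and 18 lower. Of all rows tested 12.9% were higher and 13.8% lower. The tested members include 11 that passed the filter through WT alone and 11 through Dusp2-/- alone, which had to differ, so these counts do not stand for whole stretches. Median log2 differences in CD44hi were 0.84, 1.24, 0.62 and -0.67 for the 4 stretches in that order, and 1.09, 1.46, 0.54 and -0.79 in CD44lo.

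In the first stretch Trav7-1 differed by 1.23 (SE 0.11, adjusted p = 0.00167), Trav6-2 by 0.93, Trav5-1 by 0.90 and Trav6-1 by 0.78 on the log2 scale, all called in limma, and Trav2 by 0.38 (adjusted p = 0.189). These segments were chosen for their position after the values had been seen. Plain copies with a d or n partner and those without were also set apart. Of 29 tested with a partner 6 were higher and 16 lower, and of 10 without a partner 4 were higher and 3 lower. Of all rows tested 12.9% were higher and 13.8% lower. The plain copies without a partner held 10.0% to 11.7% of the Trav sum in WT and 11.2% to 12.3% in Dusp2-/-. Those with a partner held 59.6% to 62.1% in WT and 38.7% to 40.8% in Dusp2-/-.

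**Figure D5:**
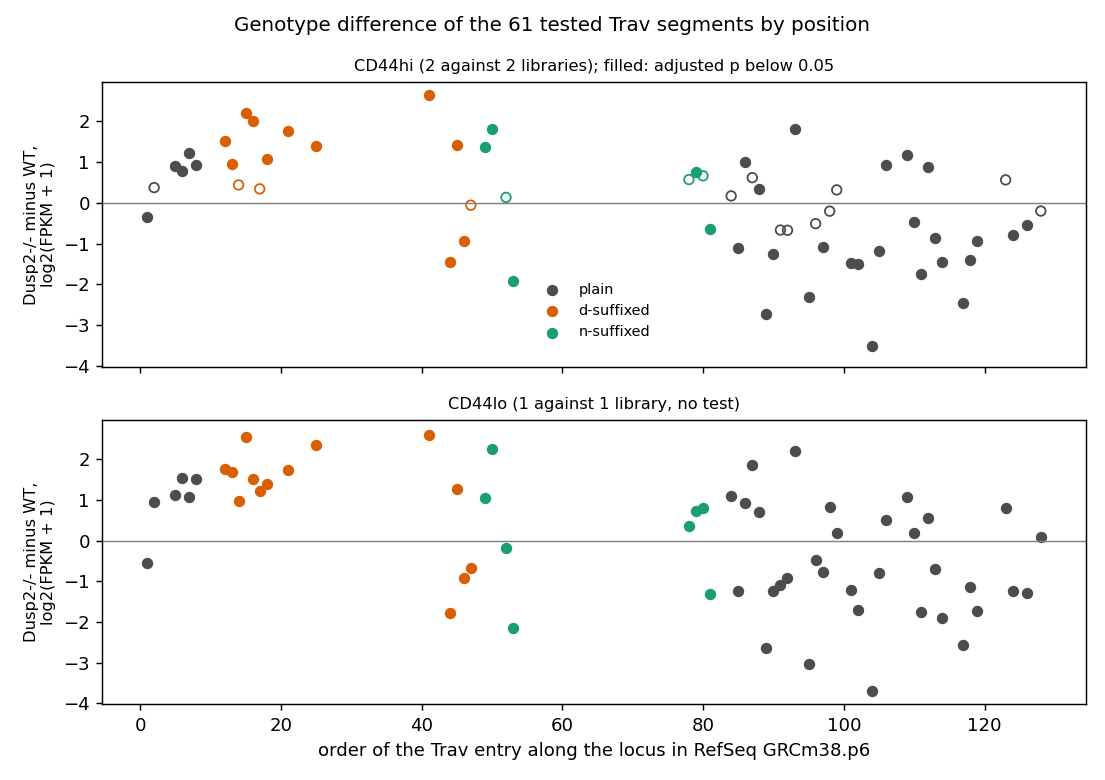
Points give the log2(FPKM + 1) difference between Dusp2-/- and WT (vertical axis) of the 61 tested members by their order along the locus in RefSeq (horizontal axis), in CD44hi above, where filled points passed an adjusted p of 0.05 in limma, and in CD44lo below, with 1 library per genotype and no test. Plain copies are grey, d copies orange and n copies green. Most d copies lie above 0 and most plain copies at the right end below it in both panels.

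The CD44lo fraction had 1 library per genotype, so its differences have no replicate check. There, 38 of the 61 tested members differed by at least 2-fold, 20 higher and 18 lower in Dusp2-/-, against 1.68% of all rows tested (0.795% higher and 0.887% lower). Of the 45 members called in CD44hi, 44 had the same sign in CD44lo, 34 of them at 2-fold or more. The CD44hi and CD44lo differences share no library, but the filter used the mean over all 6 libraries. The exception was Trav9-4, chosen for that sign, with -0.48 in CD44hi and 0.19 in CD44lo. Over 61 tested members the genotypes did not overlap in 3 against 3 libraries for 46, against 17.0% of all rows tested. Of the 45, 10 passed the filter through WT alone and 8 through Dusp2-/- alone. Of the 61, 11 passed through WT alone and 11 through Dusp2-/- alone. These had to differ, so the counts do not stand for all 103 members.

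Fewer Trav segments were called between the fractions. With genotype in the model, 17 of the 61 were called, 2 higher and 15 lower in CD44hi, against 27.4% of all rows tested (16.6% higher and 10.8% lower). The share called among the members was thus close to that of all rows. The greatest fall was that of Trav14-1, which stood at 6.63 and 6.06 FPKM in WT CD44hi and 11.6 in WT CD44lo, against 4.78 and 6.02 in Dusp2-/- CD44hi and 21.1 in Dusp2-/- CD44lo. Its CD44hi against CD44lo difference was -1.29 (SE 0.21, adjusted p = 0.00465) in limma, and both genotypes were lower in CD44hi. Trav21-dv12 stood at 1.21, 2.30 and 3.76 FPKM in WT against 0.784, 2.10 and 4.07 in Dusp2-/-, CD44lo last, and differed by -0.96 (SE 0.25, adjusted p = 0.0255). Trav13-5, at 0.270, 0.580 and 1.43 FPKM in WT against 1.86, 0.533 and 3.25 in Dusp2-/-, differed by -0.90 (SE 0.24, adjusted p = 0.0299). The last was covered by 5 to 45 reads per library. Trav7-3, at 4.12, 3.51 and 6.74 FPKM in WT against 7.90, 9.60 and 13.8 in Dusp2-/-, differed by -0.65 (SE 0.11, adjusted p = 0.00431). Without the first WT CD44hi library Trav21-dv12 (adjusted p = 0.0829 in limma) and Trav13-5 (0.0948) missed the threshold.

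The members higher in CD44hi were Trav17 and Trav13d-4. Trav17 stood at 6.74, 4.61 and 4.26 FPKM in WT against 3.11, 2.55 and 1.23 in Dusp2-/-, CD44lo last, and differed by 0.55 (SE 0.17, adjusted p = 0.0449). Trav13d-4 stood at 2.08, 1.87 and 1.13 FPKM in WT against 0.480, 0.628 and 0.127 in Dusp2-/- and differed by 0.47 (SE 0.10, adjusted p = 0.0144). Both were lower in every Dusp2-/- library than in every WT library. In limma Trav17 missed the threshold without the first WT CD44hi library (adjusted p = 0.126) and without the first or the second Dusp2-/- CD44hi library (0.104 and 0.0906). Trav13d-4 missed it without the second Dusp2-/- CD44hi library (adjusted p = 0.0634). Of the most used segments, Trav16n (-0.51), Trav3-3 (-0.30), Trav16d-dv11 (-0.45) and Trav7-4 (-0.62) were lower in CD44hi on the log2 scale, with adjusted p-values of 0.0485, 0.0438, 0.014 and 0.00775 in limma. Trav5-4 was not called, with a difference of -0.21 (SE 0.13, adjusted p = 0.274). The whole Trav sum was also lower in CD44hi, at 256 and 193 against 284 FPKM in WT and 246 and 251 against 350 in Dusp2-/-. With the Trav rows of each library scaled to the same Trav sum, an alternative chosen after seeing the data, 4 members were called, 3 higher and 1 lower, and 3 of the 17 were among them. With the first or the second Dusp2-/- CD44hi library left out, 9 were called, against 1665 and 1570 of all 9691 rows. Within WT 11 members were called (1 higher, 10 lower, against 26.1% of all rows) and within Dusp2-/- 19 (3 higher, 16 lower, against 40.1%). The Dusp2-/- fractions also differ in Xist, at 15.1 and 15.5 against 0 FPKM, and in depth, and the part of these in the fraction result was not tested.

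A difference of the genotype effect between the fractions was called for 2 of 61 members, both with a lower genotype difference in CD44hi, against 4.22% of all rows tested (2.73% higher and 1.49% lower). Trav14-1 had an interaction of -1.02 (SE 0.19, adjusted p = 0.0436) in limma. It stood at 6.63 and 6.06 FPKM in WT CD44hi and 4.78 and 6.02 in Dusp2-/- CD44hi, so that both WT libraries lay above both Dusp2-/- libraries by a narrow gap, and at 11.6 in WT CD44lo and 21.1 in Dusp2-/- CD44lo. Trav15d-1-dv6d-1 had an interaction of -0.95 (SE 0.18, adjusted p = 0.0441). It was at 0 in all WT libraries, though Trav15n-1, with no aligned difference from it, had some reads in WT. In Dusp2-/- it stood at 1.69 and 1.58 FPKM in CD44hi and at 4.11 in CD44lo. Both rest on 1 CD44lo library per genotype and on adjusted p-values just under the threshold, which Trav14-1 missed in 5 of 13 alternatives and Trav15d-1-dv6d-1 in 8 of 12. Leaving out either WT CD44hi library left 1 library in that group and raised the calls over all rows tested too, so its counts of members are not given. Without the first or the second Dusp2-/- CD44hi library the adjusted p of Trav15d-1-dv6d-1 was 0.0621 or 0.0744 in limma.

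Trav11 and Trav1 are the segments of the invariant alpha chains of NKT and MAIT cells. Trav11 was nearly unread. It had 3 reads in the first Dusp2-/- CD44hi library, 1 in Dusp2-/- CD44lo and 0 in the other 4, and its coding sequence has no aligned difference from that of Trav11d. Trav1 stood at 1.43, 1.28 and 2.81 FPKM in WT against 0.856, 0.815 and 1.58 in Dusp2-/-, CD44lo last. In limma it was lower in Dusp2-/- CD44hi, with a difference of -0.36 (SE 0.10, adjusted p = 0.0375), and lower in CD44hi than in CD44lo, with -0.59 (SE 0.10, adjusted p = 0.00546). The genotype call was lost without the first WT CD44hi library (adjusted p = 0.0517) and without the first or the second Dusp2-/- CD44hi library (0.173 and 0.224). The Dusp2-/- CD44lo value of Trav1 lay within the range of the WT libraries. Zbtb16, the factor that marks both cell types, was at most 0.0267 FPKM.

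Genes of the receptor complex and of recombination were also compared. Of the chains of the CD3 complex, which carry the receptor's signal, Cd3e differed by -0.64 (SE 0.08, adjusted p = 0.00433), Cd3g by -0.45 (SE 0.07, adjusted p = 0.00806), Cd3d by -0.40 (SE 0.08, adjusted p = 0.0136) and Cd247, the zeta chain, by 0.38 (SE 0.06, adjusted p = 0.00760) in Dusp2-/- CD44hi, in limma with Benjamini-Hochberg adjustment. The beta chain constant gene Trbc2 differed by -0.42 (SE 0.09, adjusted p = 0.0195). Of 7 tested genes of recombination and end joining, Lig4 (0.42) and Prkdc (0.39) were higher and Nhej1 (-0.37) was lower, against 26.7% called among all rows. Of 11 listed genes of the delta and gamma chains, 6 were in the table, and their sum was 3.47 FPKM in WT CD44lo and 6.33 to 8.04 FPKM in the other 5 libraries. The constant gene Trgc2 was at most 3.25 FPKM and the delta segment Trdv1 at most 2.66 FPKM. In limma the adjusted p between the genotypes in CD44hi was 0.304 for Trdv1, 0.177 for Trgc2 and 0.463 for Trgc4, the 3 that were tested. Trgc2 had an interaction of -0.80 (SE 0.16, adjusted p = 0.0495) in limma. The alpha and delta chain constant genes, Trac and Trdc, had no row under these symbols in the deposited expression table.

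The genes that flank the array were compared as well. Of the 20 nearest tested genes beyond Trav1, 2 were higher and 6 lower in Dusp2-/- CD44hi, with a median log2 difference of -0.08. Of the 20 nearest beyond the joining and constant end, 0 were higher and 8 lower, with a median of -0.19. The called shares, 8 of 20 on either side, compare with 45 of 61 among the segments and with 26.7% of all rows tested. The greatest difference among these flanking genes was that of Ccnb1ip1, at 3.29 on the log2 scale (SE 0.10, adjusted p = 2.45e-05 in limma). Also called at 2-fold or more were Gm43305 (-2.28), Ppp1r3e (-1.64), Psmb5 (-1.42), Sall2 (-1.27) and Snord8 (-1.09). At that size 1.00% of all rows tested were called. Sall2 was the nearest tested gene beyond Trav1, and Ccnb1ip1 was at place 17 on that side. These genes were chosen after their values were seen.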

How the data were processed

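The values were deposited by the authors as FPKM per gene and library, with 1 column for each of the 6 bulk RNA-seq libraries, and 0 columns matched no sample. Total RNA was extracted with Trizol, per the labels' protocols, and the submitters' processing notes list HISAT2 2.0.5 and the builds mm39 and hg38, with no role for either build. For the read counter, its handling of reads that fit several copies and the annotation, no entry is given in the sources used here. A label also mentions 10X Genomics, although the columns are bulk libraries. Genotype and fraction were taken from the sample titles.

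Within a library, a gene's FPKM values step by the worth of 1 read. Whole reads were recovered for 16220 of 16220 rows above 0 in 2 or more libraries, within 1e-06 reads, and each of the 1902 rows seen in 1 library alone was set to 1 read there. The implied length was the GENCODE vM21 exonic length, or a whole fraction of it, within 1% for 102 of 103 members, and for 6 members the reads were multiplied by that factor. The reads gave depths, floors of 3 reads, intervals and 1 alternative, limma voom with trimmed-mean (TMM) scaling, which called 3144 of 9691 rows between the genotypes in CD44hi.

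For the main result, log2(FPKM + 1) of rows averaging 1 FPKM or more was fitted with limma 3.58.1 (R 4.3.3), two-sided, with the variance trend on. Benjamini-Hochberg adjustment ran over all 9691 rows, with a threshold of 0.05. The fit by group, with 2 residual degrees of freedom, gave the genotype contrast in CD44hi and the interaction, and a model with genotype and fraction, with 3, gave the fraction contrast. The scripts were tested on simulated data. Summaries over the members were compared by exact permutation over libraries. Sequences were aligned with Biopython 1.88.

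The members and lists were chosen with earlier results of these data known. Named segments are the 8 greatest rises and 8 greatest falls past the threshold by genotype in CD44hi, the other copies of their names, the 6 greatest mean shares, up to 4 rises and 4 falls by fraction, up to 4 interactions, and Trav11 and Trav1. Alternatives were other pseudocounts, filters, scalings and tools, summed copies, and each CD44hi library left out.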

Additional observations from a re-analysis of the deposited data

Results flagged for a closer look

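For 2 of the 61 tested segments the test of the difference between the fractions in the genotype effect passed the threshold. Of all rows tested 4.22% passed it, so the share among the segments was not above that of all rows. The second given here, Trav15d-1-dv6d-1, has no aligned difference from Trav15n-1, which had some reads in WT. Trav14-1 had a genotype difference of -0.20 in CD44hi and 0.81 in CD44lo on the log2(FPKM + 1) scale, an interaction of -1.02 (adjusted p = 0.0436 in limma with Benjamini-Hochberg adjustment, 0.00253 to 0.142 over its alternatives). Trav15d-1-dv6d-1 had an interaction of -0.95 (adjusted p = 0.0441 in limma, 0.0125 to 0.332 over its alternatives), with no read in WT.

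In 2 further tested segments the CD44hi libraries of the genotypes did not overlap and the CD44lo libraries differed in the opposite direction. Trav10n differed by 0.13 in CD44hi and by -0.19 in CD44lo. Trav9-4 differed by -0.48 in CD44hi and by 0.19 in CD44lo. Neither passed the interaction test, and each CD44lo value rests on 1 library per genotype.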

How the results depend on the processing

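Between the genotypes in CD44hi, the count of 45 called members stayed within 1.5 times in all settings but 2, which tested fewer rows. With a minimum mean of 5 FPKM 11 of 12 were called, against 2037 of all 6421 rows. With copies of each name summed 25 of 40 names were called, against 2569 of 9670 rows. With no filter on low values 41 of 103 were called, against 1030 of all 16220 rows. Of the 41, 30 were among the 45. Voom called 42 (41 shared) and the same Trav sum 48 (44 shared), against 3144 and 2610 of all 9691 rows. With 1 CD44hi library left out a group held 1 library, and calls over all rows tested varied widely, so those counts are not given. Of 335 values of named members under alternatives, 319 kept the call of the main fit, called or not, and 16 missed the threshold. Among members called in the main fit 0 reversed direction. Of the 335, 212 belong to the 16 segments picked as the greatest calls of that fit, so keeping the call was partly built in.

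A fit with the replicate number as a block called 53 members (27 higher, 26 lower). Its calls over all 9691 rows rose too, to 3284 from 2586 in the main fit. No label says what the numbers share. Deviations of same-numbered CD44hi libraries correlated at 0.0224 over 9691 rows and at 0.101 over the 61 tested members, and the 2 numbers were not taken as pairs.

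Fewer fraction calls than 17 were made with no filter (11), a minimum of 5 FPKM (7 of 12), all libraries rescaled to the same total (9), voom (8), the same Trav sum (4), WT alone (11) and 1 CD44hi library left out (9 to 14). Against 2 interaction calls, both lower, 1 lower call was made with pseudocounts of 0.1 and 0.5, a minimum of 5 FPKM, no variance trend and summed copies. Over all rows these settings called 453, 419, 563, 117 and 433 in that order, and the main fit 409. With the same Trav sum 1 higher call was made, against 434 of all 9691 rows, and neither of the 2 was called. There were 4 with median-ratio scaling, 3 to 15 with 1 library left out and 0 with no filter, rescaled totals and voom, where 24, 13 and 3 had an unadjusted p below 0.05. Apart from the settings that tested fewer rows, the cause was not tested.

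With members of at least 1 FPKM alone, the genotype difference in the d and n share was 17.8 percentage points and that in the effective number -6.28, with summed copies -3.74, and without 1 library -2.99 to -2.84. The difference in the Trav sum was 111 FPKM with rescaled totals and 12.2 to 55.9 without 1 library. Summed copies brought the distance between genotypes less that within to 19.2 percentage points, from 33.9. The CD44lo libraries, 1 per genotype and the shallower with 3246 Trav reads, limit the fraction and interaction results, and 42 members were too low to be tested.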
